A study of Mus musculus with 12 samples.

Results

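Csf3r, the gene of the receptor for granulocyte colony-stimulating factor (G-CSF), was followed across the kidneys of this study with 9 genes that mark neutrophils in blood and inflamed tissue. They were S100a8, S100a9, Cxcr2, Clec4d, Clec4e, Retnlg, Trem1, Il1r2 and Mmp9. The 10 genes were chosen by symbol, matched through their Entrez identifiers, and all 10 had an entry among the 13124 genes of the count table. Each is protein-coding in the GENCODE vM21 annotation of GRCm38, which gives the positions below.

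The samples were whole kidneys of male C57BL/6 mice, flushed with saline and taken 24 h after surgery, with 3 kidneys in each of 4 groups. The anti-G-CSFR kidneys (7 to 9) and the anti-C5 kidneys (10 to 12) came from mice given the antibody VR81 against the G-CSF receptor or BB5.1 against complement protein C5. The isotype kidneys (4 to 6) came from mice given a control antibody. All 9 of these mice underwent warm ischaemia-reperfusion injury (IRI) of 1 kidney, in which blood flow is stopped and then let back, and the antibodies were injected 24 h before it. The sham kidneys (1 to 3) came from operated mice without ischaemia and without antibody, so a comparison of isotype with sham kidneys joins the injury with the injection. The labels leave unsaid whether the kidney taken after unilateral IRI was the operated one in every mouse.

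Neutrophils are short-lived white cells that reach injured tissue within hours. G-CSF, acting through the receptor encoded by Csf3r, drives their production in the bone marrow and their release into blood, and the receptor stays on the mature cell. The chemokine receptor encoded by Cxcr2 guides them towards chemokines of the CXC family, and S100a8 and S100a9 encode the subunits of calprotectin, a calcium- and zinc-binding protein that fills their cytosol. In the kidney, neutrophils are among the first cells to gather in the outer medulla after ischaemia.

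The stretches just upstream of the start sites of 4 genes are shown: that of Csf3r, the gene of the antibody's target, which held none of 4 motifs searched, and those of S100a8, S100a9 and Clec4e, which were chosen because they held one. They are RefSeq sequences of GRCm38.p6, read 5′ to 3′ on the strand of the gene, which is the plus strand for Csf3r and S100a8 and the minus strand for S100a9 and Clec4e. They cover chr4:126024409-126024549, chr3:90668821-90668977, chr3:90695722-90695971 and chr6:123289872-123290121. Capitals mark a match to a binding motif of a factor of myeloid cells, either C/EBP (TTGCNNAA, in S100a9, and as its reverse complement in Clec4e) or PU.1 (GAGGAAGT, as its reverse complement in S100a8). All motifs were searched on both strands, and none of the marked matches overlaps another.
Csf3r: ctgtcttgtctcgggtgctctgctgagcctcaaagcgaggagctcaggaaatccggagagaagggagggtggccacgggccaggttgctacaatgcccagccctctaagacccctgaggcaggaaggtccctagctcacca
S100a8: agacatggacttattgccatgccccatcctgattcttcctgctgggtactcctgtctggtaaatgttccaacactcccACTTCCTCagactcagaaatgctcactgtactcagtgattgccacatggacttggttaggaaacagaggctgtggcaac
S100a9: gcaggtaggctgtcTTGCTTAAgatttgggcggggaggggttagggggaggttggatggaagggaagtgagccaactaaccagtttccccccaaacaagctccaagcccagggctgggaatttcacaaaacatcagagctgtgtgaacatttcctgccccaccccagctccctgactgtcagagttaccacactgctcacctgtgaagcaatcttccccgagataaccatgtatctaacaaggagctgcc
Clec4e: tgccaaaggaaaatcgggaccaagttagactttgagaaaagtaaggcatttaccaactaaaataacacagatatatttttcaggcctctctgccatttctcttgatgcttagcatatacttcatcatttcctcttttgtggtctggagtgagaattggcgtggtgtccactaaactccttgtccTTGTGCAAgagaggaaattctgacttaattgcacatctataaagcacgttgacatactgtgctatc
Promoter windows were matched for 9 of the 10 genes. The C/EBP letters stood in 3 of those 9 windows (S100a9, Clec4e and Retnlg), and in 10.8% of all 32851 windows of the same length. The PU.1 letters stood in 1 of 9 windows and in 3.20% of all windows. The windows of Csf3r, Cxcr2, Clec4d, Trem1 and Il1r2 held none of the 4 motifs. Neither the AP-1 letters TGANTCA (7.81% of all windows) nor the NF-kappaB motif (5.55%) stood in any of the 9. A match is a run of letters and no measured binding.

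Levels are raw read counts per kidney or CPM (counts relative to the scaled size of the library), and totals were 13200930 to 16324215 counts per kidney. Every gene in the table had reached about 2 CPM in at least 3 kidneys before deposit. Of the 10 genes, 2 (S100a8 and S100a9) met that level in 3 kidneys outside the isotype group, and no kidney outside the isotype group and anti-C5 kidney 11 met it for the other 8. Of these 8, 7 met it in all 3 isotype kidneys, and Clec4e needed kidney 11. These 8 had to be high in isotype kidneys to be listed at all, so how many of the 10 were called lends no support by itself. Kidneys 9 and 11 stood apart from the others of their groups in genes of tubule injury. The anti-G-CSFR kidney 9 and the anti-C5 kidney 11 had a summed level of 10 tubule injury genes of 12102 and 14702 CPM. Most of it was Spp1, at 10424 CPM in kidney 9 and 10758 CPM in kidney 11, and without Spp1 the sums were 1678 and 3944 CPM. The sum of all 10 was 1803 and 2122 CPM in anti-G-CSFR kidneys 7 and 8, 2029 and 1741 CPM in anti-C5 kidneys 10 and 12, 34102 to 37207 CPM in isotype kidneys and 1552 to 2467 CPM in sham kidneys. All 10 listed markers of kidney tubules were measured. They moved opposite to the neutrophil genes: 9 of 10 rose in anti-G-CSFR against isotype kidneys, where 31.5% of all genes were called higher. In isotype against sham kidneys 9 of 10 fell, where 30.7% of all genes were called lower. The marker sums were 13285 to 14596 CPM in anti-G-CSFR kidneys and 11704 to 16215 in anti-C5 kidneys. Isotype kidneys held 6511 to 7748 CPM and sham kidneys 16026 to 16697. The part of these markers in the CPM of the neutrophil genes was not tested. None of 14 lymphocyte markers had an entry.

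Summed over the 10 genes, the anti-G-CSFR kidneys 7, 8 and 9 held 48, 32 and 42 counts. The anti-C5 kidneys 10, 11 and 12 held 122, 1805 and 177 counts, the isotype kidneys 4, 5 and 6 held 1883, 903 and 2220, and the sham kidneys 1, 2 and 3 held 163, 149 and 124. Kidney 11 therefore lay among the isotype kidneys, and every anti-G-CSFR kidney lay below every sham kidney. As CPM, anti-C5 kidney 10 (8.60) lay within the sham range of 8.49 to 10.9. Anti-C5 kidney 12 (13.7 CPM) lay above every sham kidney and below every isotype kidney. The exact 95% Poisson intervals cover counting error only. They were 35.4 to 63.6 counts for kidney 7, the highest anti-G-CSFR kidney, and 103 to 148 for the lowest sham kidney. In RNA from a whole kidney, fewer neutrophils and less RNA of these genes per neutrophil cannot be told apart.

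**Figure D1:**
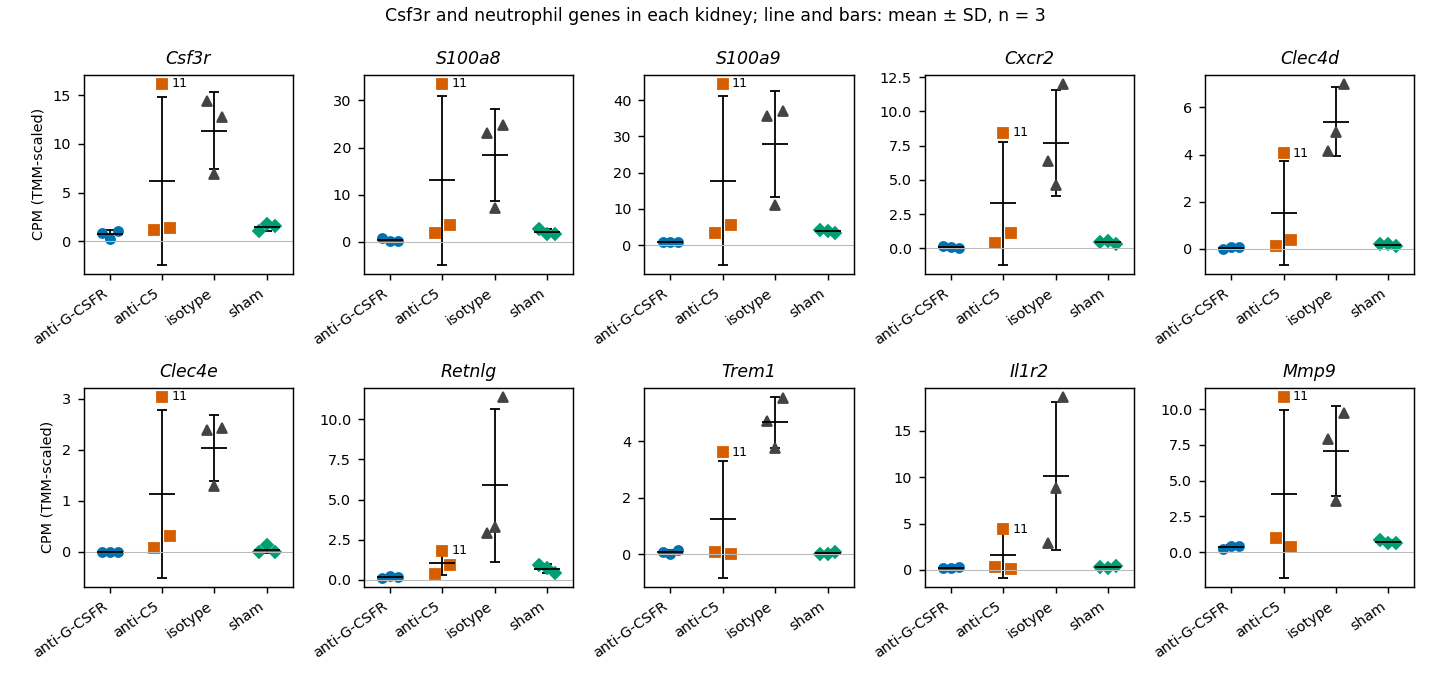
CPM of each of the 10 genes (vertical axes, TMM-scaled, starting at 0 or just below it) in each kidney of the anti-G-CSFR, anti-C5, isotype and sham groups (horizontal axis); points are kidneys, the line and bars are the mean ± SD of 3. Kidney 11 is the single high anti-C5 point in the panels, for example at 16.2 CPM of Csf3r and 44.6 CPM of S100a9.

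Csf3r (Entrez 12986, chromosome 4, 126024550 to 126044440, plus strand) had 13, 3 and 14 counts in anti-G-CSFR kidneys, 16, 224 and 18 in anti-C5 kidneys, 259, 112 and 201 in isotype kidneys and 16, 28 and 23 in sham kidneys. The highest anti-G-CSFR kidney had 14 counts and the lowest isotype kidney 112, and the anti-G-CSFR counts all lay below the sham counts. It averaged 0.714 ± 0.436 CPM in anti-G-CSFR kidneys, 6.24 ± 8.63 in anti-C5 kidneys, 11.4 ± 3.96 in isotype kidneys and 1.49 ± 0.380 in sham kidneys (SD, n = 3 each). Csf3r fell by 3.97 ± 0.943 on the log2 scale in anti-G-CSFR against isotype kidneys (SE; edgeR quasi-likelihood test, Benjamini-Hochberg adjusted p = 0.00318). It rose by 2.92 ± 0.849 in isotype against sham kidneys (edgeR adjusted p = 0.0101).

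The calprotectin genes had the most counts. S100a9 (Entrez 20202, chromosome 3, 90692632 to 90695721, minus strand) had 13, 12 and 11 counts in anti-G-CSFR kidneys, 48, 616 and 71 in anti-C5 kidneys, 642, 180 and 581 in isotype kidneys and 64, 58 and 47 in sham kidneys. S100a8 (Entrez 20201, chromosome 3, 90668978 to 90670035, plus strand) had 11, 3 and 2 counts in anti-G-CSFR kidneys, 26, 464 and 47 in anti-C5 kidneys, 417, 117 and 389 in isotype kidneys and 41, 26 and 25 in sham kidneys. For both genes the anti-G-CSFR kidneys were the lowest of all 12. S100a9 averaged 0.862 ± 0.0316 CPM in anti-G-CSFR kidneys and 27.9 ± 14.6 CPM in isotype kidneys (SD, n = 3 each), and fell by 5.00 ± 0.986 on the log2 scale (SE; edgeR adjusted p = 0.000986). S100a8 fell by 5.56 ± 1.17 in the same comparison (edgeR adjusted p = 0.00151). In isotype against sham kidneys S100a9 rose by 2.89 ± 0.812 and S100a8 by 3.16 ± 0.923 (edgeR adjusted p = 0.00845 and 0.0104). Sham kidneys held 3.76 ± 0.535 CPM of S100a9 and 2.05 ± 0.605 CPM of S100a8 (SD, n = 3), so both were detected without ischaemia.

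Cxcr2 (Entrez 12765, chromosome 1, 74153989 to 74161246, plus strand) was nearly absent under anti-G-CSFR. It had 2, 1 and 0 counts in anti-G-CSFR kidneys, 5, 117 and 14 in anti-C5 kidneys, 115, 75 and 189 in isotype kidneys and 7, 8 and 5 in sham kidneys. It averaged 7.68 ± 3.88 CPM in isotype kidneys and 0.444 ± 0.0910 CPM in sham kidneys (SD, n = 3 each), and rose by 4.08 ± 0.933 on the log2 scale (SE; edgeR adjusted p = 0.00247). In anti-G-CSFR against isotype kidneys it fell, with a log2 change of −6.58 ± 1.24 (SE; edgeR adjusted p = 0.000748). With 3 counts left in the anti-G-CSFR group the size of that fall is uncertain. Pooled counts were 106-fold lower, with a 95% counting interval of 35.9 to 514 that leaves out the spread between kidneys.

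Clec4d, Clec4e and Trem1 encode receptors of the myeloid cell surface. Clec4d and Clec4e, neighbours on chromosome 6, encode the C-type lectins MCL and Mincle, which bind glycolipids of microbes and, in the case of Mincle, a protein set free by dying cells. Trem1 encodes a receptor that amplifies inflammatory signals through the adaptor DAP12. Clec4d (Entrez 17474, 123262111 to 123275265, plus strand) had 0, 1 and 1 counts in anti-G-CSFR kidneys, 2, 56 and 5 in anti-C5 kidneys, 75, 81 and 110 in isotype kidneys and 3, 3 and 2 in sham kidneys. Clec4e (Entrez 56619, 123281789 to 123289870, minus strand) had no count in any anti-G-CSFR kidney, 1, 42 and 4 in anti-C5 kidneys, 43, 21 and 38 in isotype kidneys and 0, 2 and 0 in sham kidneys. Trem1 (Entrez 58217, chromosome 17, 48232768 to 48246924, plus strand) had 1, 0 and 2 counts in anti-G-CSFR kidneys, 1, 50 and 0 in anti-C5 kidneys, 85, 61 and 87 in isotype kidneys and 0, 0 and 1 in sham kidneys. Outside the isotype group and kidney 11, no kidney had more than 5 counts of any of the 3 genes.

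All 3 fell in anti-G-CSFR against isotype kidneys (edgeR adjusted p = 0.000518 for Clec4d, 0.00528 for Clec4e and 0.00234 for Trem1). Pooled counts were 111-fold lower for Clec4d (95% counting interval 30.5 to 923) and 64.9-fold lower for Trem1 (21.9 to 317). Clec4e, at 0 counts, was 28.4-fold lower when set to 3 counts over the group. The 95% counting interval of its fall began at 22.7-fold. In isotype against sham kidneys all 3 rose: Clec4d by 4.85 ± 0.949 on the log2 scale (SE; edgeR adjusted p = 0.000916), Clec4e with a ratio of pooled counts of 45.9 (12.4 to 384; adjusted p = 0.00788) and Trem1 with a ratio of 209 (37.2 to 8309; adjusted p = 0.00147). A processed pseudogene lies within Trem1 on the opposite strand, and the strand setting of the counting is not given in the sources used here, so reads of the pair cannot be told apart.

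Il1r2 encodes a decoy receptor that binds interleukin-1 without passing on a signal. It (Entrez 16178, chromosome 1, 40074079 to 40125231, plus strand) had 3, 3 and 4 counts in anti-G-CSFR kidneys, 4, 61 and 1 in anti-C5 kidneys, 52, 144 and 293 in isotype kidneys and 5, 3 and 6 in sham kidneys. Its isotype kidneys spread more widely than those of Csf3r, at 10.1 ± 7.97 CPM (SD, n = 3). Il1r2 fell by 5.35 ± 1.14 on the log2 scale in anti-G-CSFR against isotype kidneys (SE; edgeR adjusted p = 0.00158) and rose by 4.98 ± 1.08 in isotype against sham kidneys (adjusted p = 0.00177). An antisense gene, Gm16894, and a gene model of unproven status on the same strand, Gm37347, lie within Il1r2, so its counts carry the same doubt as those of Trem1.

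Retnlg and Mmp9 encode secreted proteins of the neutrophil, a resistin-like protein found in rodents and the matrix metalloproteinase gelatinase B of the tertiary granules. Retnlg (Entrez 245195, chromosome 16, 48872621 to 48874496, plus strand) had 2, 3 and 2 counts in anti-G-CSFR kidneys, 5, 25 and 12 in anti-C5 kidneys, 53, 54 and 179 in isotype kidneys and 14, 11 and 6 in sham kidneys. Mmp9 (Entrez 17395, chromosome 2, 164940780 to 164955850, plus strand) had 3, 6 and 6 counts in anti-G-CSFR kidneys, 14, 150 and 5 in anti-C5 kidneys, 142, 58 and 153 in isotype kidneys and 13, 10 and 9 in sham kidneys. Both were lowest in the anti-G-CSFR group on average, and Mmp9 reached a similar low of 5 counts in anti-C5 kidney 12. In anti-G-CSFR against isotype kidneys Retnlg and Mmp9 fell, with log2 changes of −5.06 ± 0.781 and −4.26 ± 1.05 (SE; edgeR adjusted p = 0.000194 and 0.00395). In isotype against sham kidneys Retnlg rose by 3.07 ± 0.622 and Mmp9 by 3.30 ± 0.938 (edgeR adjusted p = 0.00114 and 0.00905).

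All 10 genes rose in isotype against sham kidneys, where 62.8% of all genes were called and 32.1% were called higher. Their median log2 change was 3.69, beside 0.03 over all genes. All 10 fell in anti-G-CSFR against isotype kidneys, where 63.5% of all genes were called and 32.0% were called lower. Their median there was −5.46, or −5.20 with Clec4e at its bound, beside −0.02 over all genes. The groups did not overlap for any of the 10 in either comparison. Every isotype kidney was above every sham kidney for 35.5% of all genes, and every anti-G-CSFR kidney was below every isotype kidney for 34.1%. These comparisons share the isotype kidneys, so the opposite signs are not separate evidence.

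**Figure D2:**
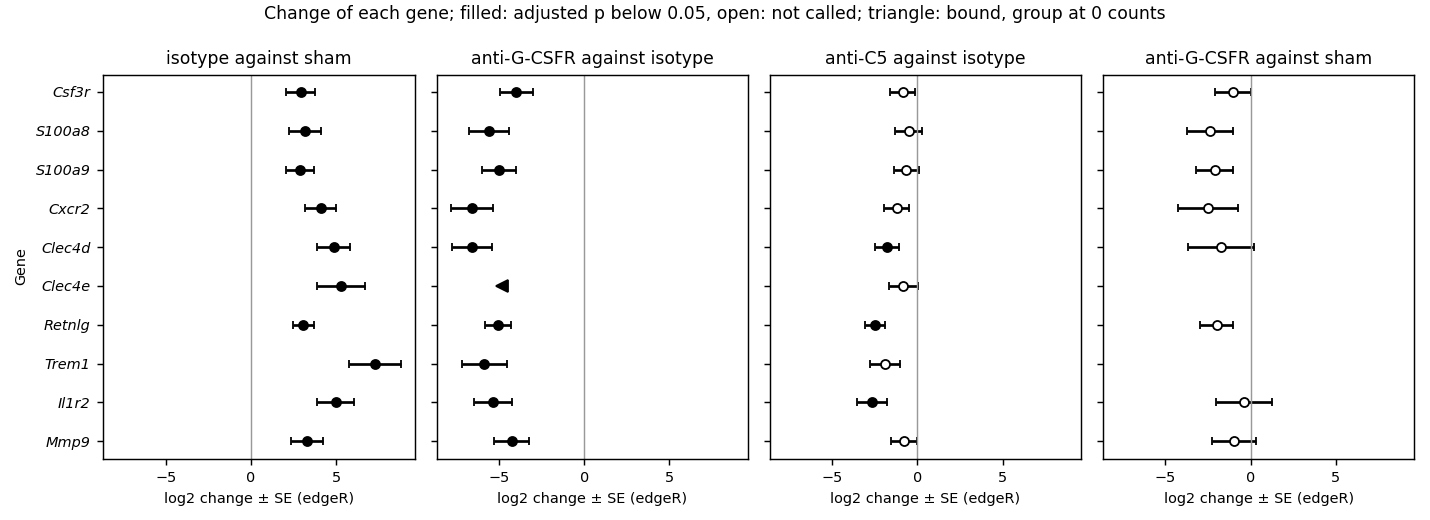
Log2 change ± SE (horizontal axes) of each of the 10 genes (rows) in 4 comparisons, one panel each. Filled points passed an adjusted p of 0.05 and open points did not. A triangle marks Clec4e with its 0 counts set to 3 over the group, and genes with 3 or fewer counts in both groups are not drawn. All 10 genes are filled in isotype against sham and in anti-G-CSFR against isotype, 3 are filled in anti-C5 against isotype and none in anti-G-CSFR against sham.

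The comparison of anti-C5 with isotype kidneys turned on kidney 11. Of the 10 genes, 3 fell, namely Clec4d, Retnlg and Il1r2, where 60.3% of all genes were called and 29.8% were called lower. Retnlg averaged 1.03 ± 0.733 CPM in anti-C5 kidneys and 5.89 ± 4.78 CPM in isotype kidneys (SD, n = 3 each), a log2 change of −2.50 ± 0.597 (SE; edgeR adjusted p = 0.00358). Il1r2 averaged 1.59 ± 2.45 CPM in anti-C5 kidneys and 10.1 ± 7.97 in isotype kidneys (SD, n = 3 each), with a log2 change of −2.65 ± 0.876 (SE; edgeR adjusted p = 0.0206). Clec4d had a log2 change of −1.81 ± 0.706 (edgeR adjusted p = 0.0431). Retnlg, Clec4d and Trem1 had every anti-C5 kidney below every isotype kidney, as 31.0% of all genes did.

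The other 7 genes did not pass the test in that comparison. Their log2 changes were −0.86 ± 0.749 for Csf3r (SE; edgeR adjusted p = 0.335), −0.50 ± 0.795 for S100a8 (0.603), −0.65 ± 0.722 for S100a9 (0.454) and −1.21 ± 0.741 for Cxcr2 (0.175). They were −0.83 ± 0.842 for Clec4e (edgeR adjusted p = 0.414), −1.91 ± 0.862 for Trem1 (0.0736) and −0.79 ± 0.783 for Mmp9 (0.398). Without kidney 11 all 10 genes fell, with log2 changes between −6.69 for Trem1 (edgeR adjusted p = 1.27e-05) and −2.66 for S100a9 (0.000417), and −3.17 for Csf3r (0.000109). Of all 13124 genes, 4081 were called lower in that fit without kidney 11. Limma-voom with sample weights called 8 of the 10 with all kidneys in, and called 4521 of all genes lower. Without isotype kidney 6, anti-C5 kidney 10 or anti-C5 kidney 12, 1 of the 10 was called in each case. Those fits called 3204, 3342 and 3156 of all genes lower, in that order.

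The summed counts of kidney 11 lay within the isotype range. Ratios of raw counts within 1 kidney need no scaling and show the proportions of the genes. S100a9 had 1.33 counts for each count of S100a8 in kidney 11 (95% counting interval 1.17 to 1.501), against 1.54 (1.36 to 1.75), 1.54 (1.21 to 1.96) and 1.49 (1.31 to 1.70) in isotype kidneys 4, 5 and 6. Clec4e had 0.188 counts per count of Csf3r in kidney 11 (0.132 to 0.262), against 0.166, 0.188 and 0.189 in the isotype kidneys. These ratios lay close together in the 4 kidneys. Il1r2 had 0.272 counts per count of Csf3r in kidney 11 (0.202 to 0.363), against 0.201 (0.146 to 0.271) in isotype kidney 4, 1.29 (0.997 to 1.66) in kidney 5 and 1.46 (1.21 to 1.75) in kidney 6. Retnlg had 0.112 counts per count of Csf3r in kidney 11 (0.0707 to 0.169), against 0.205, 0.482 and 0.891 in isotype kidneys 4, 5 and 6. By the Il1r2 and Retnlg ratios kidney 11 was nearest to isotype kidney 4, and isotype kidneys 5 and 6 held more Il1r2 and Retnlg relative to Csf3r. With 1 such anti-C5 kidney, no test between the groups is possible.

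**Figure D3:**
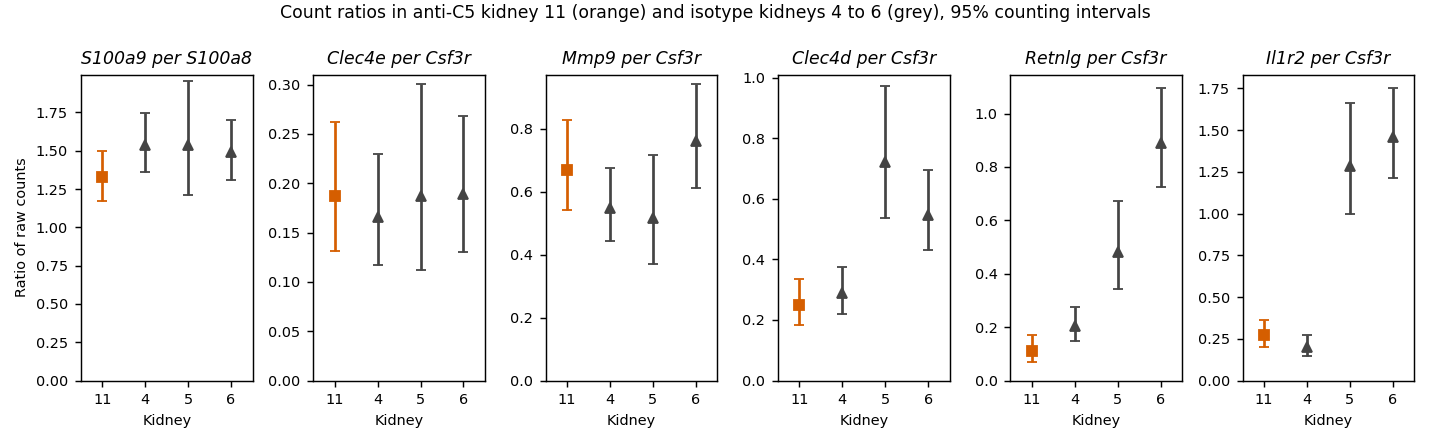
Ratio of raw counts between pairs of the 10 genes (vertical axes, starting at 0) in anti-C5 kidney 11 and isotype kidneys 4 to 6 (horizontal axis), with 95% counting intervals. The ratio of S100a9 to S100a8 stays between 1.33 and 1.54, while Il1r2 per Csf3r spans 0.201 to 1.46.

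Kidneys 9 and 11 were both above the other kidneys of their groups in tubule injury genes, and they differed in the neutrophil genes. Kidney 9 (anti-G-CSFR) held 3.18 CPM of the 10 neutrophil genes together, and kidney 11 (anti-C5) held 131 CPM. Kidney 9 thus had as little of them as anti-G-CSFR kidneys 7 and 8, at 3.17 and 2.39 CPM. The injury genes were not equal in kidneys 9 and 11 either. Spp1, the osteopontin gene, was alike, but Havcr1, the gene of kidney injury molecule KIM-1, stood at 345 CPM in kidney 9 and 1507 CPM in kidney 11. Krt20, a keratin of stressed epithelium, stood at 14.3 CPM in kidney 9 and 98.8 CPM in kidney 11, and Anxa2, a membrane-binding annexin, at 99.2 and 339 CPM. These injury genes other than Anxa2 were picked out after their values were seen. Whether the difference in neutrophil genes goes with the antibody or with the lower injury genes of kidney 9 cannot be told apart, with 1 kidney of each group.

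**Figure D4:**
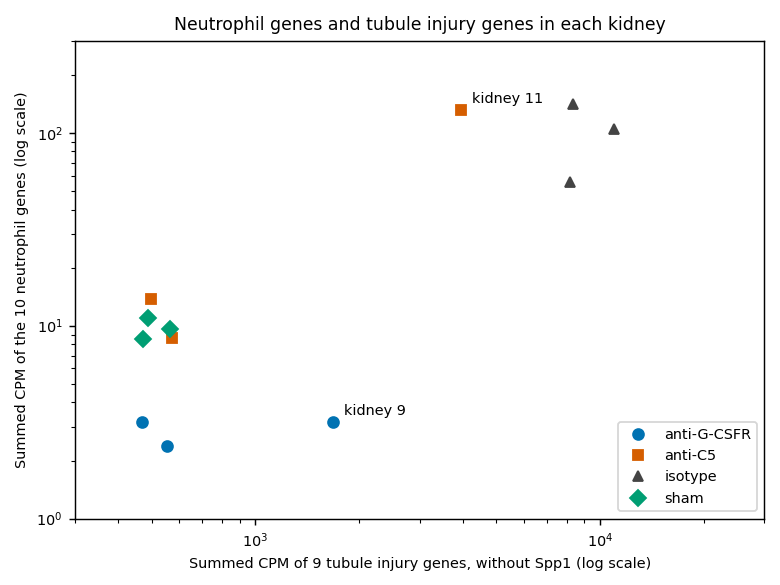
Summed CPM of the 10 neutrophil genes (vertical axis, log scale) against summed CPM of 9 tubule injury genes, Spp1 left out (horizontal axis, log scale), one point per kidney. Kidney 9 (anti-G-CSFR) lies at 1678 CPM of injury genes and 3.18 CPM of neutrophil genes, and kidney 11 (anti-C5) at 3944 and 131 CPM, both to the left of the isotype kidneys and to the right of all others.

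In anti-G-CSFR against anti-C5 kidneys none of the 10 genes was called, and 0% of all genes were called (edgeR adjusted p = 1.00 for each of the 10). At an unadjusted p under 0.05 there were 9 of the 10, all but Il1r2, and 207 of all 13124 genes, or 1.58%. Every anti-G-CSFR kidney was below every anti-C5 kidney for 7 of the 10, all but Trem1, Il1r2 and Mmp9, as it was for 2.38% of all genes. DESeq2 called 2 genes in the whole table, and both were among the 10: S100a8 with a log2 change of −5.12 and Cxcr2 with −5.53 (DESeq2 adjusted p = 0.0149 for each). Limma-voom called none of the 10. As stated above, 8 of the 10 were listed only through the isotype kidneys and kidney 11. The 10 were also chosen with earlier results of these data known, so these counts lend no support by themselves. The sizes rest on kidney 11: without it the log2 change was −0.80 for Csf3r, against −3.11 with it, −2.81 for S100a8, against −5.07, and −3.16 for Cxcr2, against −5.37 (edgeR adjusted p = 1.00 for each).

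The anti-G-CSFR kidneys were also set against the sham kidneys, which had neither ischaemia nor antibody. None of the 10 genes was called, again with 0% of all genes called, and none of the 10 had an unadjusted p under 0.05, beside 778 genes in all, or 5.93%. DESeq2 called 1 gene and limma-voom 305 genes in the table, none of them among the 10. Csf3r, S100a8, S100a9, Cxcr2, Clec4d, Retnlg and Mmp9 were lower in every anti-G-CSFR kidney than in every sham kidney, as were 8.90% of all genes. For Csf3r the gap was narrow, at 1.06 CPM in anti-G-CSFR kidney 9 and 1.07 CPM in sham kidney 1. Clec4d had 0, 1 and 1 counts against 3, 3 and 2, too few to set the groups apart from counting error. S100a9 averaged 0.862 ± 0.0316 CPM in anti-G-CSFR kidneys and 3.76 ± 0.535 CPM in sham kidneys (SD, n = 3 each), with a log2 change of −2.11 ± 1.07 (SE; edgeR adjusted p = 0.807). S100a8 had −2.40 ± 1.35 (edgeR adjusted p = 0.814), Retnlg −1.98 ± 0.965 (0.807) and Csf3r −1.05 ± 1.06 (0.897). The median over the 8 genes with more than 3 counts in either group was −1.85, beside −0.01 over all genes. In a fit to these 6 kidneys alone S100a9 was called lower (edgeR adjusted p = 0.0446). That fit called 43 genes in the whole table, 41 higher and 2 lower.

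**Figure D5:**
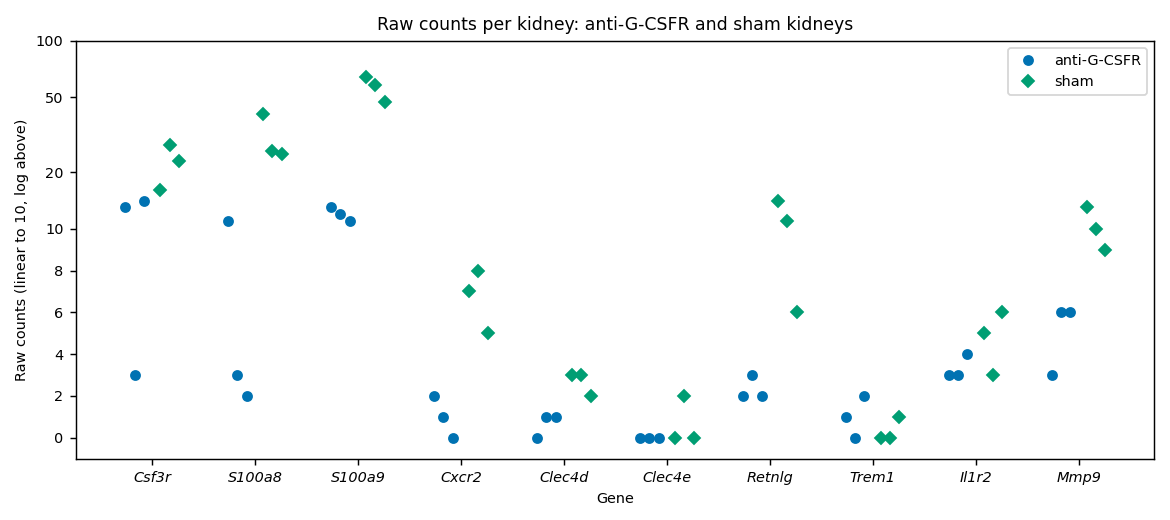
Raw counts (vertical axis, linear to 10 and logarithmic above) of each of the 10 genes (horizontal axis) in the anti-G-CSFR and sham kidneys, one point per kidney. S100a9 had 11 to 13 counts in anti-G-CSFR kidneys and 47 to 64 in sham kidneys, and Clec4e had 0 in all 3 anti-G-CSFR kidneys.

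In anti-C5 against sham kidneys edgeR called no gene of the table (0% of all genes). The groups overlapped for all 10 genes, as they did for all but 18.0% of the table. DESeq2 called 112 genes of the table there, 70 higher and 42 lower, and gave none of the 10 an adjusted p. At an unadjusted edgeR p under 0.05 there were 8 of the 10 and 1487 of all genes, or 11.3%. Since 8 of the 10 were listed only through the isotype kidneys and kidney 11, this count lends no support by itself. Csf3r had 16 and 18 counts in anti-C5 kidneys 10 and 12, within the sham range of 16 to 28, and 224 in kidney 11. The log2 change of Csf3r was 2.06 ± 0.859 with kidney 11 (SE; edgeR adjusted p = 0.401) and −0.24 ± 0.498 without it (0.900).

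Levels of different genes were compared per kilobase of exon, as CPM divided by the summed exon length (RPKM). In isotype kidneys S100a9 was the highest of the 10, at 53.5 ± 28.0 RPKM, followed by S100a8 at 26.5 ± 14.01 and Retnlg at 9.93 ± 8.06 (SD, n = 3 each). Il1r2 (5.31 ± 4.18 RPKM), Clec4d (3.37 ± 0.915), Csf3r (3.15 ± 1.10), Cxcr2 (2.52 ± 1.27), Mmp9 (2.00 ± 0.897) and Trem1 (1.56 ± 0.300) came next, and Clec4e was the lowest at 0.410 ± 0.130. S100a8 differed from Retnlg, and Trem1 from Clec4e, by more than the SD of either, and every other pair of neighbours in this order differed by less than the larger of their SDs. S100a9 at rank 1, S100a8 at rank 2 and Retnlg at rank 3 kept these places in the anti-G-CSFR, anti-C5 and sham groups. Csf3r had rank 6 in isotype kidneys and rank 4 in each of the other groups.

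The genes most like Csf3r across the 12 kidneys were Hdc (Pearson r = 0.96 of log2 CPM), Slfn4 (0.96), Tmpo, Ncf4 and Sae1 (0.95 each). Hdc encodes the enzyme that makes histamine, Slfn4 a schlafen protein of myeloid cells, Ncf4 a subunit of the phagocyte oxidase, Tmpo a protein of the nuclear envelope and Sae1 an enzyme of SUMO attachment. Among 13123 genes ranked by this measure, Clec4e stood at rank 6, S100a9 at 9, Cxcr2 at 10, Clec4d at 13, Mmp9 at 15, Trem1 at 21 and S100a8 at 22. Il1r2 (rank 296) and Retnlg (rank 491) followed Csf3r least closely. These are descriptions over kidneys that fall into a high and a low set and share depth and preparation.

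Further lists of genes were read against the whole table, in which the shares called higher and lower were 31.5% and 32.0% in anti-G-CSFR against isotype kidneys, 30.5% and 29.8% in anti-C5 against isotype kidneys, and 32.1% and 30.7% in isotype against sham kidneys. Of 43 other neutrophil genes, 26 were in the table, and 16 fell while 3 rose in anti-G-CSFR against isotype kidneys. The median log2 change of the 26 was −1.23, beside −0.02 over all genes. Itgam, the alpha chain of the integrin Mac-1, averaged 3.02 ± 1.19 CPM in anti-G-CSFR kidneys and 26.6 ± 8.03 CPM in isotype kidneys (SD, n = 3 each; log2 change −3.14 ± 0.523, edgeR adjusted p = 0.000319). Plaur, the urokinase receptor, averaged 6.89 ± 3.35 CPM in anti-G-CSFR kidneys and 109 ± 15.6 CPM in isotype kidneys (−3.99 ± 0.673, adjusted p = 0.000359). The 3 that rose were Ceacam1 (log2 change 0.90), an adhesion molecule that epithelia also make, with G0s2 (1.95) and Msrb1 (0.89), which were picked out after their values were seen. Against sham kidneys, 18 of the 26 rose and 3 fell in isotype kidneys. In anti-C5 against isotype kidneys 8 fell and 3 rose, and 18 fell and 3 rose without kidney 11.

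Granule and oxidase genes were measured less completely, at 9 of 19, and several granule genes, among them Mpo, Elane and Ltf, were not analysed here. Of the 9, 7 fell and 2 rose in anti-G-CSFR against isotype kidneys. Ncf1, a subunit of the phagocyte oxidase, fell with a log2 change of −1.42 ± 0.385 (SE; edgeR adjusted p = 0.00678). Chil3, a chitinase-like protein of myeloid cells, averaged 0.440 ± 0.340 CPM in anti-G-CSFR kidneys and 13.7 ± 7.74 CPM in isotype kidneys (SD, n = 3 each; log2 change −4.95 ± 1.08, adjusted p = 0.00192). Lcn2, a granule protein that injured tubules also make, averaged 59.9 ± 82.0 CPM in anti-G-CSFR kidneys and 2213 ± 1036 CPM in isotype kidneys (−5.21 ± 1.37, adjusted p = 0.00644). Cyba, another oxidase subunit with wide expression, rose, at 361 ± 37.9 CPM in anti-G-CSFR kidneys and 152 ± 34.0 CPM in isotype kidneys (1.25 ± 0.195, adjusted p = 0.000205). In anti-C5 against isotype kidneys 3 of the 9 fell and 2 rose, and 6 fell and 2 rose without kidney 11. Of the same 9, 6 rose and 2 fell in isotype against sham kidneys.

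Genes of the signalling path downstream of the G-CSF receptor are made by many cell types, and 20 of 24 were measured. Csf3, the gene of G-CSF, was not analysed here. In anti-G-CSFR against isotype kidneys 11 of the 20 fell and 3 rose, with a median log2 change of −0.44. Cebpb and Cebpd, transcription factors of granulocyte and acute-phase genes, fell with log2 changes of −1.71 ± 0.271 and −2.52 ± 0.493 (SE; edgeR adjusted p = 0.000234 and 0.000940). Cebpa, a factor of early granulocyte development that the kidney also expresses, rose by 1.14 ± 0.180 (adjusted p = 0.000229). There were 10 of the 20 that rose and 4 that fell in isotype against sham kidneys, and in anti-C5 against isotype kidneys 10 fell and 3 rose.

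Attractants of neutrophils and partners of the 10 genes were measured at 12 of 21, and 8 fell and 1 rose in anti-G-CSFR against isotype kidneys. Il1r1, the signalling receptor for interleukin-1, averaged 10.7 ± 2.65 CPM in anti-G-CSFR kidneys and 32.1 ± 4.81 CPM in isotype kidneys (SD, n = 3 each; log2 change −1.59 ± 0.244, edgeR adjusted p = 0.000189). Tlr4, a receptor for calprotectin, changed by −1.26 ± 0.223 (adjusted p = 0.000478), and the kinase gene Syk, used by Mincle and Trem1, by −1.01 ± 0.208 (adjusted p = 0.00131). Cxcl1 and Cxcl2, the ligands of Cxcr2, were picked out after their values were seen and fell with log2 changes of −2.85 and −3.28 (adjusted p = 0.0177 and 0.0127). C3, the single gene of this list that rose, had 77.9, 79.4 and 439 CPM in anti-G-CSFR kidneys 7, 8 and 9 and 34.1 to 85.5 CPM in isotype kidneys, and no gene of the list was called higher without kidney 9. With sham kidneys as the comparison, 9 of the 12 rose and 1 fell in isotype kidneys. In anti-C5 against isotype kidneys 4 fell, and 8 fell without kidney 11.

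Of 11 genes of leukocyte adhesion, 9 were measured, and 5 fell and 1 rose in anti-G-CSFR against isotype kidneys. Selp, the P-selectin gene of activated endothelium, averaged 0.396 ± 0.443 CPM in anti-G-CSFR kidneys and 4.03 ± 0.764 CPM in isotype kidneys (SD, n = 3 each; log2 change −3.35 ± 0.768, edgeR adjusted p = 0.00255). Icam1 and Pecam1 fell with log2 changes of −1.19 ± 0.361 and −0.78 ± 0.168 (adjusted p = 0.0125 and 0.00181). Of the 9, 5 rose in isotype against sham kidneys and none fell. In anti-C5 against isotype kidneys 3 fell and 2 rose.

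Markers of other blood cells moved less uniformly. Of 15 monocyte and macrophage markers 13 were measured, and 4 fell and 1 rose in anti-G-CSFR against isotype kidneys, with a median log2 change of −0.12. Their summed level was 149 to 198 CPM in anti-G-CSFR kidneys, 186 to 222 in anti-C5 kidneys, 244 to 263 in isotype kidneys and 138 to 195 in sham kidneys. The higher isotype sum rests on Cd14 and Cd68: without these the sums overlapped, at 138 to 171 CPM in anti-G-CSFR kidneys, 173 to 183 in anti-C5 kidneys, 152 to 195 in isotype kidneys and 128 to 181 in sham kidneys. Cd68, a lysosomal protein of macrophages, fell by 2.204 ± 0.272 on the log2 scale (SE; edgeR adjusted p = 4.71e-05), and Cd14 by 2.22 ± 0.532 (adjusted p = 0.00334). Csf1r, the growth factor receptor of macrophages, picked out after its values were seen, was the gene that rose, with a log2 change of 0.47 (adjusted p = 0.0268), and Adgre1, which encodes F4/80, was not called (0.50, adjusted p = 0.0793). The part of monocytes and macrophages in the counts of the 10 genes was not tested.

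Markers of red cells and platelets were measured at 7 of 12. Their summed level was 92.1, 135 and 82.6 CPM in anti-G-CSFR kidneys 7, 8 and 9, 88.5, 235 and 95.3 CPM in anti-C5 kidneys 10, 11 and 12, 22.1 to 51.2 CPM in isotype kidneys and 95.1 to 149 CPM in sham kidneys. Kidney 11 was the highest of all 12. The low isotype sums rest on Slc4a1, which intercalated cells of the kidney also make. Without it the sums were 23.6, 58.9 and 22.3 CPM in anti-G-CSFR kidneys 7, 8 and 9, 16.8, 194 and 44.6 CPM in anti-C5 kidneys 10, 11 and 12, 10.9 to 49.4 CPM in isotype kidneys and 25.7 to 69.3 CPM in sham kidneys, so kidney 11 stayed the highest and the other groups overlapped. The globin gene Hbb-bs, picked out after its values were seen, had 116 CPM in kidney 11 and 4.39 to 36.5 CPM in the other 11 kidneys. The part of blood left in the vessels of kidney 11 in its neutrophil counts was not tested.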

How the data were processed

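RNA of 12 kidneys was sequenced as single-end, strand-specific libraries with reads of 100 bp in lane 8 of a flow cell, per the labels' protocols. The submitters' processing notes name TopHat2 2.1.0, Bowtie2 2.2.5, featureCounts and the build GRCm38.p4. The sources used here give no strand setting, annotation or rule for shared reads. The authors deposited raw read counts for 13124 genes named by Entrez identifier. The third-highest CPM of every gene was at least 2.01, so a filter of about 2 CPM in 3 libraries is read from the values. RefSeq (GRCm38.p6) named 13074 of the genes, and GENCODE vM21 gave positions.

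Groups came from the labels. No pair of kidneys in a group agreed within sampling noise (chi-square over its degrees of freedom from 5.45 to 65.3), so each was 1 replicate. The series' design counts 3 mice per group, so kidneys are taken as separate animals, and p-values measure only the spread between them.

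Tests used edgeR 4.0.16 under R 4.3.3 (TMM factors, robust quasi-likelihood fit over all 12 libraries, 8 residual degrees of freedom, common biological coefficient of variation 16.4%). Genes were called at a Benjamini-Hochberg adjusted p below 0.05 over all 13124 genes. The SE of a log2 change was computed from the change and its F statistic. CPM were TMM-scaled, RPKM used the exon union of GENCODE vM21, and likeness used log2 CPM with a prior count of 2. Intervals of counts and ratios are exact 95% intervals for counting error only. A count of 0 was set to 3 counts over the group so that a ratio could be given.

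The alternatives were RLE factors, library totals alone, a mean count of at least 50, DESeq2 1.42.0, limma-voom (limma 3.58.1) with sample weights, no robust option, only the 6 libraries compared, fits without kidneys 9 and 11, and each library left out in turn. The gene test was also run on simulated data in which all kidneys shared a mean per gene, apart from changes planted in a group. No simulated kidney stood apart from its group as kidneys 9 and 11 did, so the simulation does not bear on results that turn on them. The list counts without kidneys 9 and 11 or with library totals, and the list sums without Spp1, Slc4a1 or Cd14 and Cd68, were chosen after seeing the data. The 10 genes, the gene lists and the tests were chosen with earlier results of these data known, so no list is independent evidence. The named genes are the 10, up to 4 genes of each list (6 of the neutrophil lists) with the smallest adjusted p in anti-G-CSFR against isotype, and the 5 genes with a mean of at least 1 CPM most like Csf3r. The text prints some of these; 1 of them is not reported here.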

Additional observations from a re-analysis of the deposited data

How the results depend on the processing

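For anti-G-CSFR against isotype and for isotype against sham, all 132 alternative values of the 10 genes in each comparison kept their direction and their call. The exceptions in count came from fewer genes tested: with a mean count of at least 50, 3 genes entered and 3 were called in each of these comparisons, and 0 in anti-C5 against isotype. Of the 11871 genes tested then, 3895 were called higher in isotype against sham. There were 3888 called lower in anti-G-CSFR against isotype and 3660 in anti-C5 against isotype. DESeq2 gave S100a9 no adjusted p, so its counts are out of 9 in the comparisons other than anti-C5 against sham. In anti-C5 against sham, where DESeq2 called 112 genes in all, it gave none of the 10 genes an adjusted p. In anti-C5 against isotype, 3 genes were called with all kidneys, 8 with limma-voom, 10 without kidneys 9 and 11, and 1 with only the 6 compared libraries. With each kidney left out in turn 1 to 10 were called (1 without kidney 6, 10 or 12, and 10 without kidney 11). Of all 13124 genes, 3913 were called lower in that comparison with all kidneys, 4521 with limma-voom and 4009 without kidneys 9 and 11. There were 3162 with only the 6 compared libraries. With each kidney left out there were 3156 (without kidney 12) to 4081 (without kidney 11). The call of Clec4d there was lost with DESeq2 (adjusted p = 0.0530) and with only 6 libraries (0.114), and over all alternatives its adjusted p ran from 1.43e-05 to 0.132. That of Il1r2 ran from 0.000248 to 0.112, and that of Retnlg from 0.000282 to 0.0212, under 0.05 throughout. DESeq2 called 2 of the 10 in anti-G-CSFR against anti-C5, where it called 2 genes in all. A fit to only the 6 libraries called 1 of the 10, S100a9, in anti-G-CSFR against sham, where it called 43 genes in all. The cause of these differences was not tested.

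Values that changed sign were called under neither setting. For these, leaving out each kidney in turn gave log2 changes in anti-C5 against isotype of −2.76 (without kidney 11) to 0.0204 (without kidney 10) for S100a8. In anti-G-CSFR against anti-C5 the values ran from −4.84 to 0.83 for Trem1 and from −3.24 to 0.37 for Il1r2, with the positive ends without kidney 11, and Il1r2 was at 0.19 without kidneys 9 and 11. In anti-C5 against sham they ran from −0.24 to 2.56 for Csf3r, −0.13 to 0.99 for Retnlg, −0.74 to 2.87 for Il1r2 and −0.0314 to 3.04 for Mmp9, with each negative end without kidney 11. Without kidneys 9 and 11 they were −0.24, −0.12, −0.73 and −0.0245 for the same 4 genes, and limma-voom gave −0.0828 for Retnlg.

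With library totals alone, the median of all genes shifted to 0.23 (isotype against sham), −0.23 (anti-G-CSFR against isotype) and −0.19 (anti-C5 against isotype) on the log2 scale. The share of called genes that were higher was then 64.4%, 35.9% and 37.8%, against 51.0%, 49.6% and 50.6% with TMM factors. The number of the 10 genes called did not change with it. Of 13 monocyte and macrophage markers 7, not 3, were then higher in isotype than in sham kidneys. No paired analysis was possible because the kidneys carry numbers 1 to 12 and no number is shared between groups. In anti-G-CSFR kidneys 5 of the 10 genes had 3 or fewer counts in each kidney, so differences among them were not detectable at this depth.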

Other observations

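Anti-G-CSFR kidney 9 held other inflammatory and acute-phase transcripts beside few neutrophil counts, in genes picked out after their values were seen. Its Socs3, a feedback inhibitor of cytokine receptors, stood at 16.7 CPM, against 2.31 and 2.83 CPM in anti-G-CSFR kidneys 7 and 8, 30.7 to 52.9 CPM in isotype kidneys and 2.60 to 3.504 CPM in sham kidneys. Its Cxcl1, a ligand of the receptor Cxcr2, stood at 5.37 CPM, against 1.19 and 1.12 CPM in kidneys 7 and 8, 13.3 to 24.9 CPM in isotype kidneys and 0.402 to 0.843 CPM in sham kidneys. Kidney 11, the anti-C5 kidney with many neutrophil counts, held 22.3 CPM of Cxcl1 and 19.3 CPM of Socs3. Hp, which encodes the haemoglobin-binding protein haptoglobin, was not particular to kidney 9, at 0.462, 17.5 and 32.5 CPM in anti-G-CSFR kidneys 7, 8 and 9, 4.19 CPM in kidney 11, 6.57 to 83.7 CPM in isotype kidneys and 2.92 to 3.70 CPM in sham kidneys. The kidney with the most C3 was also kidney 9, at 439 CPM. These are single kidneys, and no test bears on them.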
